A study of Mus musculus with 24 samples.

Results

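The segments TRBV14, TRBV15, TRBV16, TRBV17, TRBV19 and TRBV20 form a central stretch of the V array of the mouse T cell receptor beta locus (Tcrb). They were taken by name, as all rows numbered 14 to 20, and make up 6 of the 22 V segments and 66 of the 242 V-J pairs in the Tcrb tables. TRBV18 lies within the stretch but is annotated as a pseudogene in GENCODE M21 and had no row in these tables. Thymocyte RNA was profiled in Satb1 knockout (KO) mice, labelled Satb1-/- and called Satb1cKO in the series design, and in wild-type (WT) mice. All animals were C57BL/6, aged 4 to 12 weeks, and the 6 Tcrb libraries (3 KO, 3 WT) are part of 24 libraries that cover 4 receptor chains. The labels used here state neither what drives the conditional deletion nor whether replicates are separate mice, so p-values measure only the spread between these libraries. A value is the percentage, out of all V-J assignments of a library, that fell to 1 V with 1 J segment.

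A beta chain is assembled in the thymus by V(D)J recombination: a D segment is first joined to a J segment, and a V segment is then joined to the DJ unit. The mouse locus holds a pair of D-J-C clusters, J1 and J2, lying one behind the other, and most V segments lie upstream of both. Satb1 is a chromatin-organising protein that is abundant in thymocytes. The tables measure only receptor segments, so neither Satb1 nor markers of thymocytes could be checked in them. In bulk thymus RNA, fewer cells carrying a segment and less transcript per cell cannot be told apart. Shares within a library sum to 100%, so a higher share of 1 segment has to be matched by lower shares elsewhere.

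All 6 segments are annotated on the forward strand of chromosome 6 (GRCm38, GENCODE M21) as functional V genes of 2 exons. Trbv14 lies at chr6:41135145-41135616, Trbv15 at chr6:41141188-41141658, Trbv16 at chr6:41151740-41152230, Trbv17 at chr6:41163062-41163556, Trbv19 at chr6:41178375-41179048 and Trbv20 at chr6:41188273-41188977. Their 3′ ends are 398 kb (Trbv14) to 344 kb (Trbv20) upstream of Trbd1, the first D segment, and they are the 11th to 16th of the 21 listed V segments upstream of it. The last 33 bases of each V are shown because this coding end opens the CDR3, the loop of the receptor that contacts antigen, and because TRBV20 departs there from the rest. Capitals mark the codon of the conserved cysteine at which the CDR3 begins, and the sequences are the 3′ ends of the GENCODE M21 transcripts.
TRBV14: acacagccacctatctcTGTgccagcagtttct
TRBV15: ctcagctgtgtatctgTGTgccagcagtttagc
TRBV16: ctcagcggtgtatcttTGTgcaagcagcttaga
TRBV17: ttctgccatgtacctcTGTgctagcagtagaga
TRBV19: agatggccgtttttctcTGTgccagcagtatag
TRBV20: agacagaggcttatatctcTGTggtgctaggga

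The motif TGTGCNAGC, read on the coding strand only, was found in the last 33 bases of 5 of the 6 segments and of 17 of the 22 listed V segments (77.3%). TRBV20 was the member without it. The last exons of the 6 segments shared 57.9% to 73.4% of their bases with each other, TRBV15 and TRBV16 being the most alike. The highest identity between one of them and any other listed V was 71.6% (TRBV19 with TRBV13-1), so none of the 6 had a near-identical copy among the listed segments. Some of the J segments named in the results below are shown, with the codons of the conserved FGXG motif in capitals.
TRBJ1-1: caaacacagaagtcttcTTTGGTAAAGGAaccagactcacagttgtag
TRBJ1-4: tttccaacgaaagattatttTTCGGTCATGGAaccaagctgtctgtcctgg
TRBJ2-3: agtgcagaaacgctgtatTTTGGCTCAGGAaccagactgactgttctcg
TRBJ2-7: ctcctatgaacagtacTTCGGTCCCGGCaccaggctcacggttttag

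TRBJ1-1 (chr6:41533864-41533911) and TRBJ1-4 (chr6:41534811-41534861) belong to the first cluster. TRBJ2-3 (chr6:41543223-41543271) and TRBJ2-7 (chr6:41543810-41543856) belong to the second, which lies farther from the V array. The tables list 5 J1 and 6 J2 segments.

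The tables give percentages without counts. In each of the 6 libraries, dividing by the lowest non-zero entry gave whole numbers for 100% of values (to a tolerance of 0.01). If that entry stands for a single assignment, a library with a smaller one is deeper, but the labels do not say what was counted, so counts were not reconstructed and no counting intervals are given. The smallest value above 0 was 0.00570%, 0.0133% and 0.0110% in the KO libraries and 0.00657%, 0.00809% and 0.00890% in the WT libraries, so KO replicate 1 had the finest and KO replicate 2 the coarsest values of the 6. Every one of the 66 pairs was above 0 in all 6 libraries.

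The first comparison asked whether the share of each segment differed between KO and WT thymocytes. The mean summed share of the 6 segments differed between genotypes by less than the spread of libraries. Among them TRBV20 had a higher and TRBV15 a lower mean share in KO, and these passed the test only in some fits, given below. The summed share was 23.7%, 25.3% and 26.0% in KO libraries and 23.4%, 27.0% and 24.3% in WT libraries. The means were 25.0% ± 1.16 in KO and 24.9% ± 1.87 in WT (SD, n = 3 each), and the difference of 0.0951 percentage points had an exact two-sided permutation p of 1 (adjusted p 1 over the 3 single values tested). With 3 libraries against 3 the smallest p this test can give is 0.1.

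TRBV20, the member nearest to the D segments, held 4.21%, 4.72% and 5.19% of KO libraries, against 3.08%, 3.29% and 2.71% of WT libraries. All KO libraries lay above all WT libraries. The KO to WT ratio of means was 1.55, and TRBV20 ranked 11th of 22 V segments by mean share in KO and 16th in WT.

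TRBV15 went the other way. It held 4.28%, 3.71% and 3.71% of KO libraries, against 5.74%, 5.73% and 5.35% of WT libraries, with every KO library below every WT library. The KO to WT ratio was 0.696, and TRBV15 ranked 13th in KO and 7th in WT. Its KO mean was 1.70 percentage points below the WT mean, and that of TRBV20 was 1.68 above.

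The other 4 members overlapped between genotypes. TRBV16, the most used of them, averaged 6.02% ± 0.856 in KO and 6.42% ± 0.656 in WT (SD, n = 3 each). TRBV17 averaged 5.99% ± 0.925 in KO and 5.37% ± 1.01 in WT. TRBV19 averaged 3.30% ± 0.240 in KO and 3.25% ± 0.352 in WT, and TRBV14, the least used, averaged 1.10% ± 0.0268 in KO and 1.24% ± 0.225 in WT. By mean share these members stood at ranks 7, 8, 15 and 20 in KO, and at 6, 8, 15 and 20 in WT. In KO, the members in falling order were TRBV16, TRBV17, TRBV20, TRBV15, TRBV19 and TRBV14, and TRBV16 and TRBV17 differed by less than the SD of either. In WT, the order was TRBV16, TRBV15, TRBV17, TRBV19, TRBV20 and TRBV14. There TRBV15 and TRBV17 differed by less than the SD of TRBV17, and TRBV19 and TRBV20 by less than the SD of either.

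**Figure D1:**
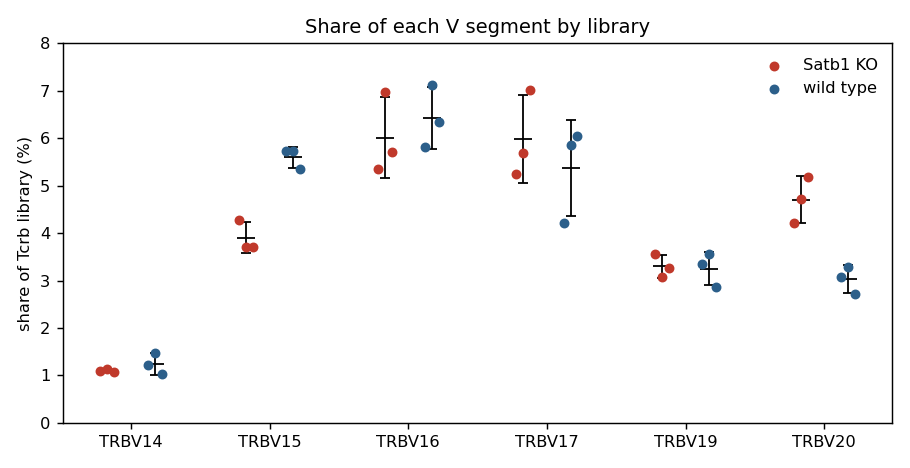
Share of the Tcrb library (%, vertical axis) held by each of the 6 V segments, with 1 point per library, Satb1 KO in red and wild type in blue, and black bars for mean ± SD (n = 3). The genotypes are separate for TRBV15 (3.90% in KO, 5.60% in WT) and TRBV20 (4.71% in KO, 3.03% in WT) and overlap for the other 4 segments.

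The shares were tested with limma on log2(percent + 0.00570%), fitted over all 22 V segments. TRBV20 had a log2 fold change (KO over WT) of 0.63 ± 0.16 (SE; 95% interval 0.27 to 1.00) and TRBV15 one of -0.52 ± 0.15 (-0.86 to -0.19), both with an adjusted p of 0.0740 in limma. No V segment passed the threshold of 0.05 in this fit (0 of 22, 0%), and 3 of 22 (13.6%) had an unadjusted p under it, TRBV15 and TRBV20 among them. Libraries with the same replicate number deviated together, which was seen in these same V shares and is not stated by the labels. Calls with the number as a block therefore depend on a choice made from the data. With this block limma called 3 of 22 segments (13.6%, with 9.09% higher and 4.55% lower in KO). These were TRBV20 (adjusted p = 0.0345, higher in KO), TRBV15 (adjusted p = 0.0345, lower in KO) and TRBV2, which is no member. Centred on the library mean, both were called without the block as well (adjusted p 0.0428 each in limma).

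The KO minus WT differences within replicate numbers 1, 2 and 3 were 1.13, 1.43 and 2.47 percentage points for TRBV20, and -1.46, -2.02 and -1.63 for TRBV15. Groups did not overlap for 2 of the 6 members, 1 in each direction, and for 4 of all 22 V segments (18.2%; 13.6% higher and 4.55% lower in KO). The limma intervals of the 4 remaining members included 0. The log2 fold change was -0.15 (-0.54 to 0.24) for TRBV14, -0.10 (-0.48 to 0.29) for TRBV16, 0.16 (-0.29 to 0.61) for TRBV17 and 0.02 (-0.34 to 0.38) for TRBV19. The median was -0.04 over the 6 members and -0.01 over all 22 V segments.

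**Figure D2:**
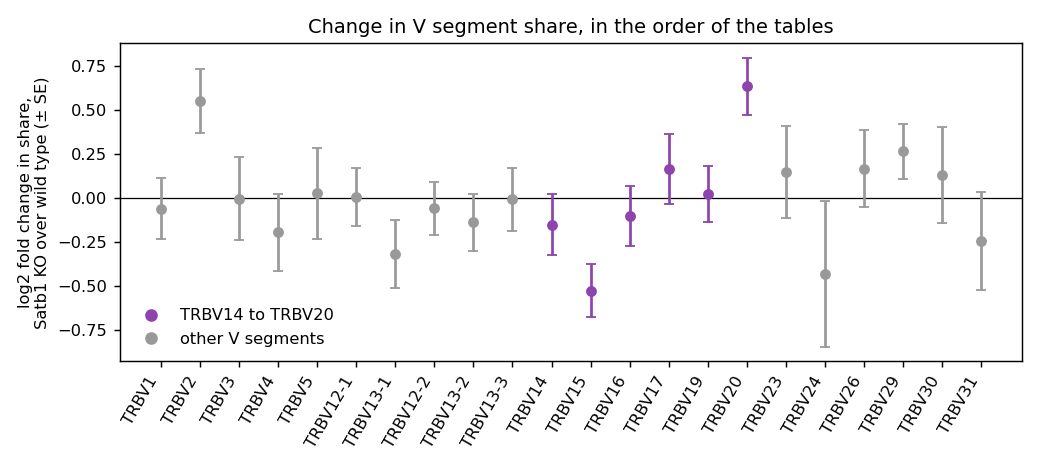
Log2 fold change in V segment share, Satb1 KO over wild type (vertical axis, point ± SE from limma), for all 22 listed V segments in the order of the tables, with TRBV14 to TRBV20 in purple. TRBV20 (0.63) is the highest and TRBV15 (-0.52) the lowest of all 22, and the members between and beside them lie from -0.15 to 0.16.

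Outside the stretch, the V segment whose log2 share followed TRBV20 most closely over the 6 libraries was TRBV2 (Pearson r 0.705), and for TRBV15 it was TRBV13-1 (r 0.689). For TRBV16 it was TRBV3 (r 0.880), for TRBV19 TRBV23 (r 0.768), for TRBV14 TRBV1 (r 0.732) and for TRBV17 TRBV5 (r 0.507). These are the highest of 16 values for each member over 6 points that share libraries and genotype, and they are given as a description.

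The second comparison asked whether each V segment was joined to J1 and J2 segments in the same proportion. The ratio of J1 to J2 rose in KO for TRBV20 and TRBV17, and the estimate was above 0 for 20 of all 22 V segments. With each library centred on its mean over all V segments, neither TRBV20 nor TRBV17 was called. The mean J1 part of the other 4 members was higher in KO, but their ratios did not pass the test. Of the TRBV20 share, 43.0%, 49.6% and 47.9% was joined to J1 in KO libraries, against 36.0%, 31.9% and 35.7% in WT libraries. The means were 46.8% ± 3.40 in KO and 34.6% ± 2.28 in WT, and no KO library overlapped a WT library. By this measure TRBV20 was the first of 22 V segments in KO and the fifth in WT, where TRBV13-3 was first with 39.1%.

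TRBV17 was among the V segments least joined to J1 in both genotypes, and ranked 19th in KO and 21st in WT. Its J1 part was 35.9%, 30.8% and 33.6% in KO libraries, against 25.5%, 22.5% and 22.5% in WT libraries, again without overlap. The lowest J1 parts of all V segments were those of TRBV24 in KO (26.1%) and TRBV30 in WT (22.8%).

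TRBV16 had a J1 part of 44.1%, 41.7% and 35.2% in KO libraries, against 31.9%, 30.5% and 34.6% in WT libraries. The groups did not overlap, though KO replicate 3 and WT replicate 3 lay within 1 percentage point of each other. The other 3 members overlapped. TRBV14 averaged 30.0% ± 3.30 in KO and 24.0% ± 4.25 in WT, TRBV15 averaged 34.0% ± 4.59 in KO and 29.6% ± 3.06 in WT, and TRBV19 averaged 39.6% ± 3.06 in KO and 36.0% ± 4.39 in WT.

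In limma on the log2 ratio of J1 to J2 share, TRBV20 differed by 0.73 ± 0.18 (SE; 95% interval 0.36 to 1.11) and TRBV17 by 0.71 ± 0.17 (0.34 to 1.07), each with an adjusted p of 0.00689. They were 2 of the 4 V segments called among 22 (18.2%), all 4 higher in KO; the others were TRBV1 and TRBV4. TRBV16 (0.50 ± 0.18, adjusted p = 0.0536 in limma) and TRBV14 (0.44 ± 0.20, adjusted p = 0.108 in limma) did not pass. TRBV15 differed by 0.29 (-0.11 to 0.69, adjusted p = 0.189 in limma) and TRBV19 by 0.22 (-0.17 to 0.62, adjusted p = 0.279 in limma). Single libraries moved these uncalled values: without KO replicate 1 TRBV15 was 0.14, and without WT replicate 3 TRBV19 was 0.074 and TRBV14 0.25. TRBV16 passed without KO replicate 3 (0.66, adjusted p = 0.00903 in limma), and its adjusted p lay between 0.00903 and 0.852 over all settings. Estimates were above 0 for 6 of 6 members and for 20 of all 22 V segments, and groups did not overlap for 3 of the 6 members and for 10 of all 22 (45.5%). The median log2 difference was 0.47 over the members and 0.35 over all V segments.

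**Figure D3:**
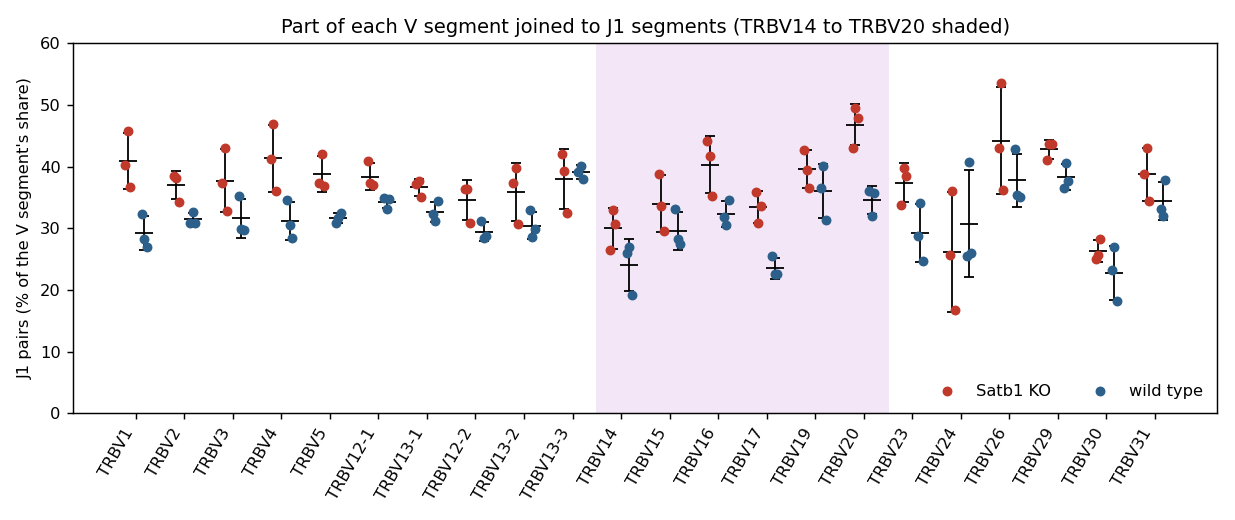
Part of each V segment's share joined to J1 segments (%, vertical axis) for all 22 V segments, with 1 point per library (KO red, WT blue), black bars for mean ± SD (n = 3) and TRBV14 to TRBV20 shaded. TRBV20 has the highest KO mean of all 22 (46.8%). The KO and WT points are apart for 10 of the 22 V segments (45.5%), TRBV16, TRBV17 and TRBV20 among them.

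Because the J1 part was higher in KO over the locus as a whole, the members were also set against the other 16 V segments. Over the members together the J1 part was 40.1%, 38.9% and 36.5% in KO libraries and 31.9%, 29.5% and 29.1% in WT libraries. The difference of 8.30 percentage points had an exact permutation p of 0.1, the smallest possible, and an adjusted p of 0.3. Over the other V segments it was 38.6%, 41.0% and 35.1% in KO libraries and 33.4%, 31.8% and 32.2% in WT libraries, a difference of 5.78 points.

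Members minus other V segments gave 1.52, -2.10 and 1.35 percentage points in KO libraries and -1.43, -2.29 and -3.07 in WT libraries. These overlapped, and the difference of 2.52 had an exact permutation p of 0.2 (adjusted p 0.3), so a J1 shift particular to the stretch was not shown. With each log2 ratio centred on the mean of its library over all V segments, TRBV20 was 0.37 (adjusted p = 0.164 in limma) and TRBV17 0.34 (adjusted p = 0.192 in limma). On that scale neither was called, while TRBV16 was 0.13 and TRBV14, TRBV15 and TRBV19 lay between -0.14 and 0.08.

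The share of each member was then divided into its J1 and its J2 pairs, as a percentage of the whole library. TRBV20 was higher in both clusters, mostly in J1. Its J1 pairs held 1.81%, 2.34% and 2.48% of KO libraries, against 1.11%, 1.05% and 0.970% of WT libraries, a difference of 1.17 percentage points. Its J2 pairs held 2.40%, 2.38% and 2.70% of KO libraries, against 1.97%, 2.24% and 1.74% of WT libraries, a difference of 0.509. In both clusters all KO libraries lay above all WT libraries.

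The lower share of TRBV15 lay mostly in J2. Its J2 pairs held 2.62%, 2.46% and 2.62% of KO libraries, against 3.84%, 4.11% and 3.88% of WT libraries, without overlap and with a difference of -1.38 percentage points. Its J1 pairs held 1.66%, 1.25% and 1.10% of KO libraries, against 1.90%, 1.62% and 1.47% of WT libraries. Here the groups overlapped and the difference was -0.326, with KO lower within each replicate number (-0.240, -0.368 and -0.369).

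TRBV17 changed its J1 part with little difference in J2. Its J1 pairs held 1.88%, 1.76% and 2.36% of KO libraries, against 1.07%, 1.32% and 1.36% of WT libraries, all KO libraries being higher. Its J2 pairs averaged 3.99% ± 0.650 in KO and 4.12% ± 0.856 in WT and overlapped. TRBV16 averaged 2.43% in J1 and 3.59% in J2 in KO, against 2.07% and 4.35% in WT, and overlapped in both. Within replicate numbers 1, 2 and 3 its J2 difference was -0.970, -0.881 and -0.444 percentage points, lower in KO each time, and its J1 difference was 0.506, 0.744 and -0.178. TRBV19 overlapped in both clusters. TRBV14 overlapped in J1, and in J2 it was lower in every KO library, with means of 0.771% in KO and 0.934% in WT. Groups did not overlap in J1 pairs for 2 of the 6 members, both higher in KO, and for 18.2% of all 22 V segments. In J2 pairs this held for 1 member higher in KO (9.09% of all V segments) and 2 lower in KO (22.7%), or 31.8% of all V segments in either direction. These divided shares were described and not tested.

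The third comparison asked which J segments carried the differences. No single V-J pair passed the test, with or without the replicate block (0 of 209 pairs tested, 0%, with 60 of the 66 member pairs among them). An unadjusted p under 0.05 was found for 14 of the 60 member pairs and for 25 of all 209 (12.0%). The groups did not overlap for 14 of the 66 member pairs and for 40 of all 242 (16.5%). All KO libraries were higher in 9 of the 66 and 9.09% of all pairs, and lower in 5 of the 66 and 7.44% of all pairs.

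TRBV20 had a higher mean in KO for 10 of its 11 pairs, the exception being TRBJ2-3, and all KO libraries were higher in 5 of them, of which 4 were J1 pairs. TRBV15 had a lower mean in KO for 10 of its 11 pairs, the exception being TRBJ1-3, and all KO libraries were lower in 3 of its 6 J2 pairs. Over all 242 pairs the KO mean was higher in 125 and lower in 117. Taken as parts of each segment's own share, the KO mean was higher in 6 of 11 pairs of TRBV20 and in 5 of 11 of TRBV15. The most used J of TRBV20 over the 6 libraries was TRBJ1-1. That pair held 0.507%, 0.944% and 0.791% of KO libraries, against 0.493%, 0.291% and 0.267% of WT libraries. The groups were separate, with KO replicate 1 just above WT replicate 1, and the log2 fold change was 1.09 ± 0.33 (SE; adjusted p = 0.226 in limma).

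The most used J of the other 5 members was TRBJ2-7. For TRBV15 this pair averaged 0.544% ± 0.200 in KO and 0.930% ± 0.300 in WT, with overlap and an adjusted p of 0.391 in limma. For TRBV14 it held 0.217%, 0.213% and 0.165% of KO libraries, against 0.237%, 0.429% and 0.258% of WT libraries, all KO libraries being lower (log2 fold change -0.58, adjusted p = 0.473 in limma). For the other 3 members the pair means differed by less than the larger SD. They were 0.842% ± 0.126 in KO and 0.937% ± 0.0921 in WT for TRBV16, 0.913% ± 0.273 in KO and 0.943% ± 0.298 in WT for TRBV17, and 0.420% ± 0.0239 in KO and 0.441% ± 0.0609 in WT for TRBV19.

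Several further pairs were chosen after their values were seen. TRBV20 with TRBJ1-4 held 0.456%, 0.559% and 0.560% of KO libraries, against 0.191%, 0.210% and 0.231% of WT libraries. The genotypes were far apart relative to their spread, with a log2 fold change of 1.29 ± 0.26 (SE; adjusted p = 0.0679 in limma, and 0.0971 with the block). TRBV15 averaged 0.453% ± 0.0927 in KO and 0.747% ± 0.0561 in WT with TRBJ2-1, and 0.225% ± 0.0629 in KO and 0.413% ± 0.0414 in WT with TRBJ2-2. With TRBJ2-3 it averaged 0.441% ± 0.0490 in KO and 0.724% ± 0.141 in WT. In these 3 TRBV15 pairs every KO library was below every WT library, and the adjusted p in limma was between 0.241 and 0.320.

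**Figure D4:**
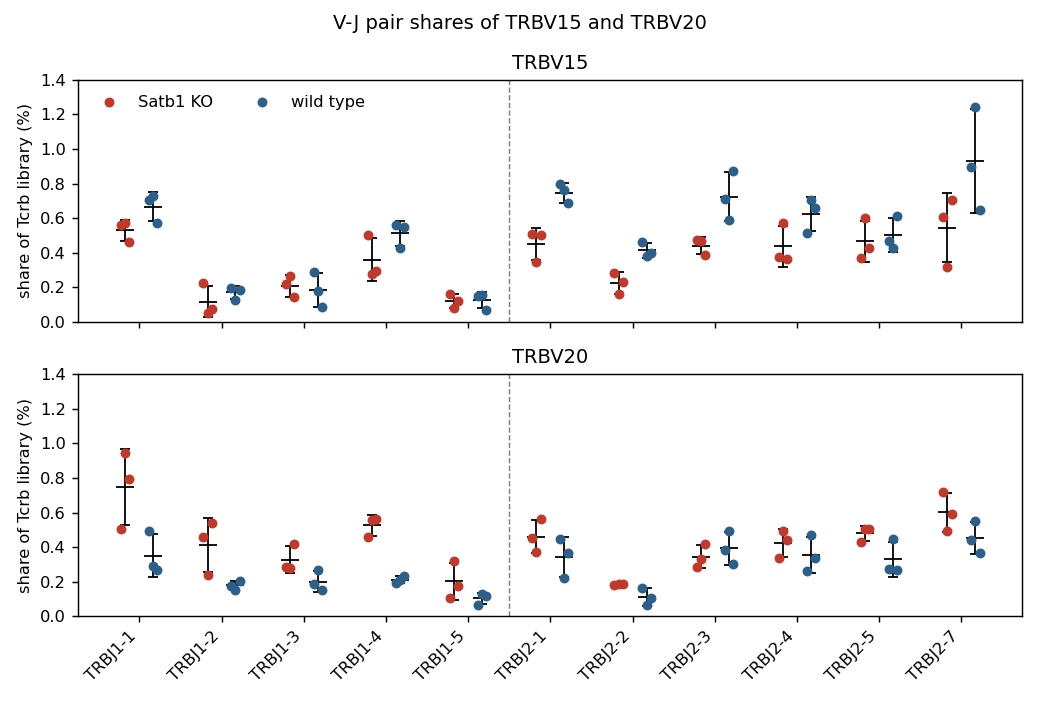
Share of the Tcrb library (%, vertical axis) of each pair of TRBV15 (upper panel) and TRBV20 (lower panel) with the 11 listed J segments, 1 point per library (KO red, WT blue) with mean ± SD, and a dashed line between J1 and J2. For TRBV20 the KO mean is higher in 10 of 11 pairs, the separation being widest relative to the spread at TRBJ1-4. For TRBV15 the KO mean is lower in 10 of 11 pairs. Over all 242 pairs of the library the KO mean is higher in 125 and lower in 117.

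Finally the J profile was read within each V, as the percentage of that segment's own share, which sets its overall level aside. No pair passed (0 of 220 tested in limma, 0%, all 66 member pairs included). An unadjusted p under 0.05 was found for 10 of the 66 member pairs and 20 of all 220 (9.09%). Groups did not overlap for 8 of the 66 member pairs and for 37 of all 242 (15.3%). Over the 30 J1 pairs of the members the KO mean was higher in 25, against 88 of 110 over all V segments, and over their 36 J2 pairs it was lower in 29, against 91 of 132.

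The pairs named next were also chosen after their values were seen. Within TRBV20, TRBJ2-3 made up 6.77%, 7.04% and 8.05% in KO libraries, against 12.4%, 15.0% and 11.1% in WT libraries. Every KO library was lower, and this pair had a log2 difference of -0.80 ± 0.20 (SE; unadjusted p = 0.00326, adjusted p = 0.359 in limma). TRBJ1-4 made up 10.8%, 11.8% and 10.8% of TRBV20 in KO libraries, against 6.18%, 6.39% and 8.52% in WT libraries, every KO library being higher (adjusted p = 0.483 in limma).

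Within TRBV16, TRBJ2-4 averaged 8.84% ± 1.32 in KO and 13.5% ± 1.99 in WT, every KO library being lower. Within TRBV17, TRBJ1-4 averaged 11.0% ± 3.82 in KO and 6.23% ± 1.67 in WT, every KO library being higher. Within TRBV14, TRBJ2-3 averaged 13.5% ± 5.69 in KO and 6.38% ± 1.60 in WT, a J2 segment that was higher in every KO library although the J1 part of TRBV14 was also higher on average. TRBV14 has the coarsest profile of the 6, since it held only 1.10% of KO libraries and single values in them could not be smaller than 0.00570% to 0.0133%. The adjusted p of these 3 pairs was 0.483 in limma.

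**Figure D5:**
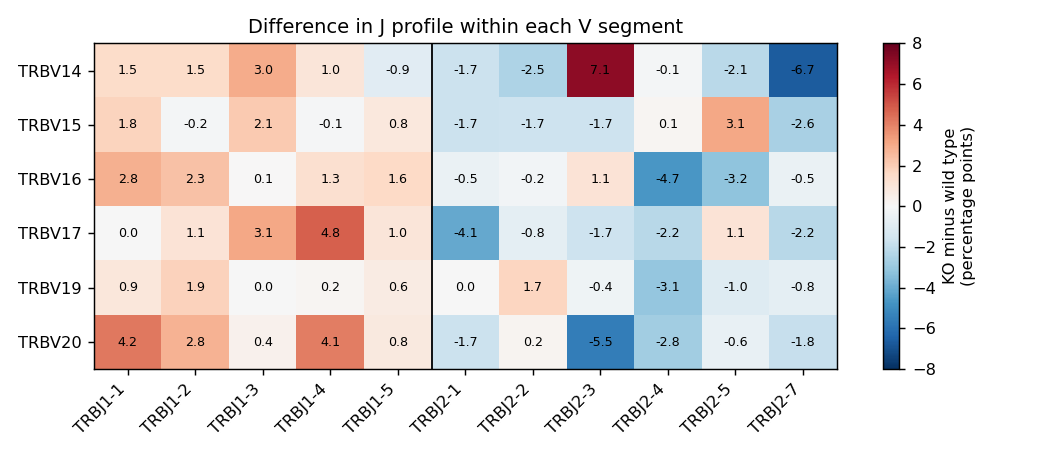
Difference in mean J share within each V segment, KO minus WT in percentage points (colour and printed number), for the 6 V segments (rows) and the 11 listed J segments (columns), with a line between J1 and J2. J1 columns are mostly positive (25 of 30, against 88 of 110 over all V segments). J2 columns are mostly negative (29 of 36, against 91 of 132 over all V segments). TRBJ2-3 of TRBV20 is among the lowest values and TRBJ2-3 of TRBV14 is the highest.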

How the data were processed

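Thymocyte RNA was reverse transcribed by 5′ RACE, amplified with a constant-region primer and sequenced as paired reads on an Illumina HiSeq, per the labels' protocols. Reads were handled with fastp, per the submitters' processing notes. For the aligner, segment caller, build and any molecular identifiers: not given in the sources used here. The deposited values are in percent: each table lists V against J segments and sums to 100. Whether reads or clonotypes were counted, and how many per library, is not stated; all values were whole multiples of a library's smallest, but counts were not reconstructed.

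Only the 6 Tcrb tables were used, grouped by the genotype in the titles. V shares, V-J pair shares, the log2 ratio of J1 to J2 share within each V, and J shares within each V were fitted over the whole table with limma 3.58.1 in R 4.3.3. The pseudocount was 0.00570% (0.1% within V) and features needed a mean of 0.1% (within V, also a V share of 1%). Calls were made at a Benjamini-Hochberg adjusted p of 0.05. Fold changes are on the log2(percent + pseudocount) scale. The 3 single values were compared by exact permutation (two-sided, 20 arrangements). The limma step was tested on simulated data.

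Same-numbered libraries were taken as pairs where residuals correlated above 0.1 for all 3 numbers. In V shares r was 0.489 to 0.767, against at most -0.124 between other numbers. In pair shares it was 0.250 to 0.375, against at most -0.0629. The other 2 measures did not pass. Residuals were centred within genotype, so positive values for equal numbers force those between other numbers below 0 on balance. The contrast with other numbers is therefore no separate support for the pairing. The pairing comes from the data, not from the labels. Alternatives were other pseudocounts and filters, the block, a mean-variance trend, centring, equal weights and leaving out each library. Centring of the J1 to J2 ratio was added after the data were seen.

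The members and lists were chosen with earlier results of these data known. Named by rule were all members, the J with the highest mean share for each, called pairs (there were none), the non-member V most correlated with each member, and the V highest and lowest in J1 part. Positions and sequences were taken by gene name from GENCODE M21 (GRCm38), which may not be the build the authors used. Other software was biopython 1.88, matplotlib 3.10.9, scipy 1.17.1, pandas 2.3.3, numpy 2.4.6 and Python 3.11.15.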

Additional observations from a re-analysis of the deposited data

How the results depend on the processing

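The counts of called segments depended on the fit. In V shares 0 were called, against 1 with a filter at 1% (TRBV20), 3 with the replicate block, 3 with a mean-variance trend, 2 after centring (TRBV15 and TRBV20) and 0 to 1 when 1 library was left out (TRBV2, without KO replicate 3). Over these settings the adjusted p in limma lay between 0.0345 and 0.325 for TRBV15 and between 0.0287 and 0.325 for TRBV20. In V-J pairs 0 were called, against 2 with 10 times the pseudocount, 2 with the trend and 0 to 3 when 1 library was left out. The 3 came without WT replicate 3 and included TRBV20 with TRBJ1-4 and TRBV17 with TRBJ1-5. A filter at 1% left no member pair to test. In J shares within V 0 were called, against 0 to 1 when 1 library was left out (TRBV17 with TRBJ1-5, without WT replicate 3). For the J1 to J2 ratio 4 were called in the fit given above. This became 7 with 10 times the pseudocount, 8 with a filter at 1%, 8 with the replicate block and 7 with the trend. After centring 1 was called (TRBV24, lower in KO), and 3 to 11 were called when 1 library was left out (11 without KO replicate 3). TRBV24 is annotated as a pseudogene and averaged only 0.278% of KO and 0.337% of WT libraries. Its J1 parts overlapped between genotypes. TRBV14 was called in 2 of these settings (the filter at 1% and the block) and TRBV16 in 5 (these, 10 times the pseudocount, the trend and without KO replicate 3). The numbers did not pair the libraries in this measure (r -0.069 to 0.17 in the ratio, 0.0518 to 0.157 in J shares within V). The block changed no call of pairs or of J shares within V. With 1 library left out, the adjusted p of the J1 to J2 ratio in limma reached 0.0496 for TRBV17 and 0.0375 for TRBV20. The first came without KO replicate 1 and the second without WT replicate 3. TRBV17 and TRBV20 lost their J1 to J2 call only after centring, of the settings run. On that scale TRBV15 was -0.074 and TRBV19 -0.14, against the positive values above. Leaving out 1 library gave log2 ratio differences of 0.25 to 0.57 for TRBV14, 0.14 to 0.43 for TRBV15, 0.39 to 0.66 for TRBV16 and 0.074 to 0.35 for TRBV19.

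Leaving out 1 library also turned the sign of some small log2 differences that were not called. Their ranges were -0.0023 to 0.26 for the share of TRBV17 and -0.065 to 0.089 for that of TRBV19. With TRBJ2-7 they were -0.32 to 0.15 (TRBV17) and -0.14 to 0.047 (TRBV19) for pair shares. Within V they were -0.53 to 0.035 (TRBV15), -0.19 to 0.026 (TRBV16) and -0.18 to 0.017 (TRBV19).

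The difference in summed share of 0.0951 points ranged from -0.664 to 1.14 when 1 library was left out and took the opposite sign in 4 of 6 cases. The J1 difference within the members ranged from 7.50 to 9.30 points and was 7.37 with equal weights. That of members minus other V segments ranged from 1.89 to 3.70 and was 2.32 with equal weights. With the replicate block, the exact p was 1 for the summed share and 0.25 for the other 2 values, which is the smallest that 3 pairs can give. Equal weights were not run for the summed share, where they only rescale it. The cause of these changes was not tested, and 3 libraries a genotype, with no counts stated, limit the precision.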
